A study of Homo sapiens with 16 samples.

Results

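The metallothioneins are small cysteine-rich proteins that bind zinc, copper and cadmium, and most human family members are encoded in a single cluster on chromosome 16. Their RNA was followed across 4 established human breast cancer cell lines grown as monolayers and, for 2 of the lines, as spheroids. The members are 8 protein-coding genes, MT1A, MT1E, MT1F, MT1G, MT1H, MT1M, MT1X and MT2A, selected by gene name from the 58735 genes of the count table. The family was put forward with the levels in the HCC1806 monolayers and spheroids already known, so that contrast is described below without a test.

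There were 8 groups of 2 libraries, 16 libraries in all. HCC1806 spheroids were collected on day 10 and day 20 after seeding and set against HCC1806 monolayers. BT474 spheroids of day 10 and day 20 were set against BT474 monolayers. CAL148 and ZR-75-30 were grown as monolayers alone. HCC1806 and ZR-75-30 were kept in RPMI and CAL148 and BT474 in DMEM, each with 10% fetal bovine serum, so line and medium cannot be told apart between HCC1806 and BT474 or between ZR-75-30 and BT474. No drug, metal or genetic change is named in the labels. The titles set the groups, since the treatment label gives monolayer culture for every one of the 16 libraries, spheroids included. The labels do not say whether the replicates were separate cultures, so p-values measure only the spread between these libraries.

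Free zinc activates the transcription factor MTF1, which binds metal response elements in metallothionein promoters, and the proteins made then buffer the metal. Glucocorticoids, through NR3C1, and oxidants also raise metallothionein RNA in many cells. MT2A is usually the main isoform in epithelial cells and the MT1 isoforms differ in how widely they are expressed. In breast tissue the family is known from myoepithelial cells and from many carcinomas.

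All 8 members lie on chromosome 16 within one stretch, in GRCh38 coordinates as the count table gives them. MT2A (ENSG00000125148) is at chr16:56608199-56609497, followed by MT1E at chr16:56625475-56627112, MT1M at chr16:56632233-56633986, MT1A at chr16:56638666-56640087 and MT1F at chr16:56657694-56660698. MT1G is at chr16:56666731-56668065, MT1H at chr16:56669814-56671129 and MT1X at chr16:56682424-56684196. MT1G is on the minus strand and the other members are on the plus strand.

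Promoters of MT2A, MT1H and MT1X, taken from the RefSeq promoter table (GRCh38.p14, 250 bases before to 50 after the gene start, plus strand, 5′ to 3′), are shown for the element by which MTF1 recognises the family. They are the 3 of 8 members matched by symbol in that table. Capitals mark the core of the metal response element, searched as TGCACNC or TGCGCNC on both strands. The MT2A window is chr16:56608334-56608633, the MT1H window chr16:56669564-56669863 and the MT1X window chr16:56682220-56682519. By these windows the gene start of the promoter table differs from that of the count table for MT2A and MT1X. The MT2A window begins after the count-table start at chr16:56608199.
MT2A promoter: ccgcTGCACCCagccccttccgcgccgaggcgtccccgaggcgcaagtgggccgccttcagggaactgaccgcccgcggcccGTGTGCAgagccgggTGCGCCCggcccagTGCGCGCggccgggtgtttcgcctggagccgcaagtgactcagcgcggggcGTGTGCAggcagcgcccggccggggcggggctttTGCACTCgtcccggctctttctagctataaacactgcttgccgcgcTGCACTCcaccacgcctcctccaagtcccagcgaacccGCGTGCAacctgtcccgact
MT1H promoter: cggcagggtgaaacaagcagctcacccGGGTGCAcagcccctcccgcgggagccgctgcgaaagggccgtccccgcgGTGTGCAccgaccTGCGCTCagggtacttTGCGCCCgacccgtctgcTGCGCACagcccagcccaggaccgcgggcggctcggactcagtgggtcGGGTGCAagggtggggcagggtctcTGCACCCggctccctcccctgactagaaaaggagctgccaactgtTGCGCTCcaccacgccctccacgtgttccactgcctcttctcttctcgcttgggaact
MT1X promoter: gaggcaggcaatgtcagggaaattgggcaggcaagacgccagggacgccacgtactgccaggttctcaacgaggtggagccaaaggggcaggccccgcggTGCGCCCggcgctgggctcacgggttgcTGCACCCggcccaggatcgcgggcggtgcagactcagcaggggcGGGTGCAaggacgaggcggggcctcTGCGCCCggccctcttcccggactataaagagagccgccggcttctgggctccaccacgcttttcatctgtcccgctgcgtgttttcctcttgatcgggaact
The MT2A and MT1H windows each held 8 cores, 5 on the strand shown and 3 on the other, and the MT1X window held 4. Of the 35116 promoters in the table, 29.6% held 1 or more cores, 0.601% held 4 or more and 0.0199% (7 promoters) held 8 or more. The TATAAA box, found in 7.33% of all promoters on the given strand, was present in MT2A and MT1X and not in MT1H. MT2A was the most abundant member in every library, while MT1H, with the same number of cores, had 2 counts in all 16 libraries together. A match to these letters is a description of the window and not evidence of binding.

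The coding sequences are shown for the 4 members with the most counts because they tell how far reads can be assigned to one member. They come from the GENCODE 29 transcripts (GRCh38), and capitals mark bases that differ from MT2A.
MT2A: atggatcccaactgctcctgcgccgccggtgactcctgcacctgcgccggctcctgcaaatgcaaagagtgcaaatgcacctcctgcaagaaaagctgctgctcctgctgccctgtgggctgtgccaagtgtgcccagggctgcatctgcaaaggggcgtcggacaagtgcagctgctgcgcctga
MT1E: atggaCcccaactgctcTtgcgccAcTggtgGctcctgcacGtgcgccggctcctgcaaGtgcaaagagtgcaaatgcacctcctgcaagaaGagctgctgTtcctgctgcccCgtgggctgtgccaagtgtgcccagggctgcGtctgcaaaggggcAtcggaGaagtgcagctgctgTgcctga
MT1F: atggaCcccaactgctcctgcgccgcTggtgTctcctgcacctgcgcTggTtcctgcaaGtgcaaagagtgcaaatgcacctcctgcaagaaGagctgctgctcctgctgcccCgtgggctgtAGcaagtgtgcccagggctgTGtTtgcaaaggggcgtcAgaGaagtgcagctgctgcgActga
MT1X: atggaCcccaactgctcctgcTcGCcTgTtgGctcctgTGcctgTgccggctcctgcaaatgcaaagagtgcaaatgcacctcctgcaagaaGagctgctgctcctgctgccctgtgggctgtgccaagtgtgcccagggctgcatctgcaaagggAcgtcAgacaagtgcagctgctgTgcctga
All 8 coding sequences were 186 bases with the stop codon, and each held 20 cysteine codons among its 61 codons. MT1E differed from MT2A at 14 positions, MT1F at 16 and MT1X at 14, and over all 8 members the difference from MT2A ran from 9 bases (MT1G) to 19 (MT1M). Between members 88.7% to 95.2% of bases were identical. No window of 150 bases, the read length, in the transcripts of MT2A, MT1E, MT1F, MT1A, MT1M, MT1G or MT1H was found unchanged in a transcript of another gene. For MT1X 173 of 2017 windows (8.58%) also occurred in AC026461.1, a processed transcript on the same strand that shares 18.1% of the exonic bases of MT1X. AC026461.1 had 0 counts in all libraries, so MT1X counts are uncertain to the extent that reads in the shared stretch were dropped.

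Library totals ran from 29.7 M to 72.49 M counts. The detection floor, taken as 3 counts per library, was 0.0458 to 0.139 CPM (CPM here are counts scaled to a common library size with TMM factors), and it covers counting error only. Low counts were mostly even, as when both mates of a read pair are counted. The HCC1806 monolayer libraries stood apart from each other, with an SD of 1.23 between replicates on the log2 scale over genes, against 0.171 to 0.266 in the pairs from spheroids and BT474. Mitochondrial transcripts made up 17.8% of counts in HCC1806 monolayer library 1 and 0.768% in library 2, and ribosomal protein transcripts 13.4% and 4.12%. ZR-75-30 replicate 2 had 20.5% mitochondrial counts against 1.96% in replicate 1, and the replicate SD on that scale was 0.693 in ZR-75-30 and 0.541 in CAL148. The line markers matched the labels. ERBB2 averaged 116 to 208 CPM in HCC1806, 8864 CPM in ZR-75-30, 338 CPM in CAL148 and 6224 to 7166 CPM in BT474, and KRT5 averaged 2248 to 4517 CPM in HCC1806 and under 0.1 CPM elsewhere. Summed over 12 markers of fibroblasts, endothelium and leukocytes the level was 13.5 to 170 CPM, with 4 to 10 markers per group at or under 3 counts.

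MT2A, the broadly expressed isoform, was detected in all 16 libraries. HCC1806 libraries had 402 and 192 CPM in monolayers, 52.1 and 44.8 CPM in day 10 spheroids and 43.0 and 36.1 CPM in day 20 spheroids. ZR-75-30 monolayers had 245 and 213 CPM and CAL148 monolayers 42.4 and 21.0 CPM. BT474 had 38.9 and 14.97 CPM in monolayers, 10.7 and 11.5 CPM on day 10 and 20.2 and 15.2 CPM on day 20. The HCC1806 and ZR-75-30 monolayers were high, with ranges that overlapped each other and no other group, and BT474 day 10 spheroids were lowest. Between these ends HCC1806 day 10 spheroids stood above HCC1806 day 20 spheroids without overlap. HCC1806 day 20 spheroids overlapped CAL148, CAL148 overlapped BT474 monolayers, and BT474 monolayers overlapped BT474 day 20 spheroids.

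MT1E, an isoform known to vary between breast cancer lines, was present in 2 lines and at 0 in the other two. HCC1806 had 4712 and 1926 counts in monolayers, 891 and 798 on day 10 and 751 and 768 on day 20. ZR-75-30 had 672 and 511 counts. All 8 libraries of CAL148 and BT474 had 0 counts, which allows at most 0.0458 to 0.0819 CPM. In CPM the HCC1806 monolayers had 176 and 53.6, the day 10 spheroids 20.1 and 20.3 and the day 20 spheroids 19.0 and 17.8, beside 18.7 and 23.7 in ZR-75-30. Apart from the HCC1806 monolayers the expressing groups were close on this TMM scale, and ZR-75-30 overlapped the HCC1806 day 10 spheroids. On library totals alone ZR-75-30 lay below them.

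MT1F, another isoform that binds zinc and copper, had a different order, with CAL148 at the top. CAL148 had 7.80 and 10.96 CPM, HCC1806 monolayers 10.9 and 2.31 CPM and ZR-75-30 4.39 and 4.41 CPM. HCC1806 spheroids had 3.92 and 2.62 CPM on day 10 and 1.74 and 2.57 CPM on day 20. BT474 had 3.50 and 1.53 CPM in monolayers, 1.92 and 2.12 CPM on day 10 and 2.73 and 3.54 CPM on day 20. The HCC1806 monolayer pair alone spanned from near the bottom of this range to the CAL148 level, and neighbours in the order overlapped except ZR-75-30, which lay above HCC1806 day 10 spheroids. That separation rested on TMM factors of 0.9029 and 0.6727 in ZR-75-30 and 1.106 and 1.122 in HCC1806 day 10 spheroids. On library totals alone these groups overlapped.

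MT1X, an isoform whose RNA is metal-inducible in many cells, was detected in all 16 libraries at low levels. It had 5.43 and 1.92 CPM in HCC1806 monolayers, 0.744 and 1.02 CPM on day 10 and 2.199 and 1.44 CPM on day 20. ZR-75-30 had 2.14 and 5.25 CPM and CAL148 0.491 and 1.07 CPM. BT474 had 0.710 and 0.405 CPM in monolayers, 0.419 and 0.275 CPM on day 10 and 1.19 and 0.951 CPM on day 20. In both lines grown as spheroids the day 20 libraries lay above the day 10 libraries without overlap.

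**Figure D1:**
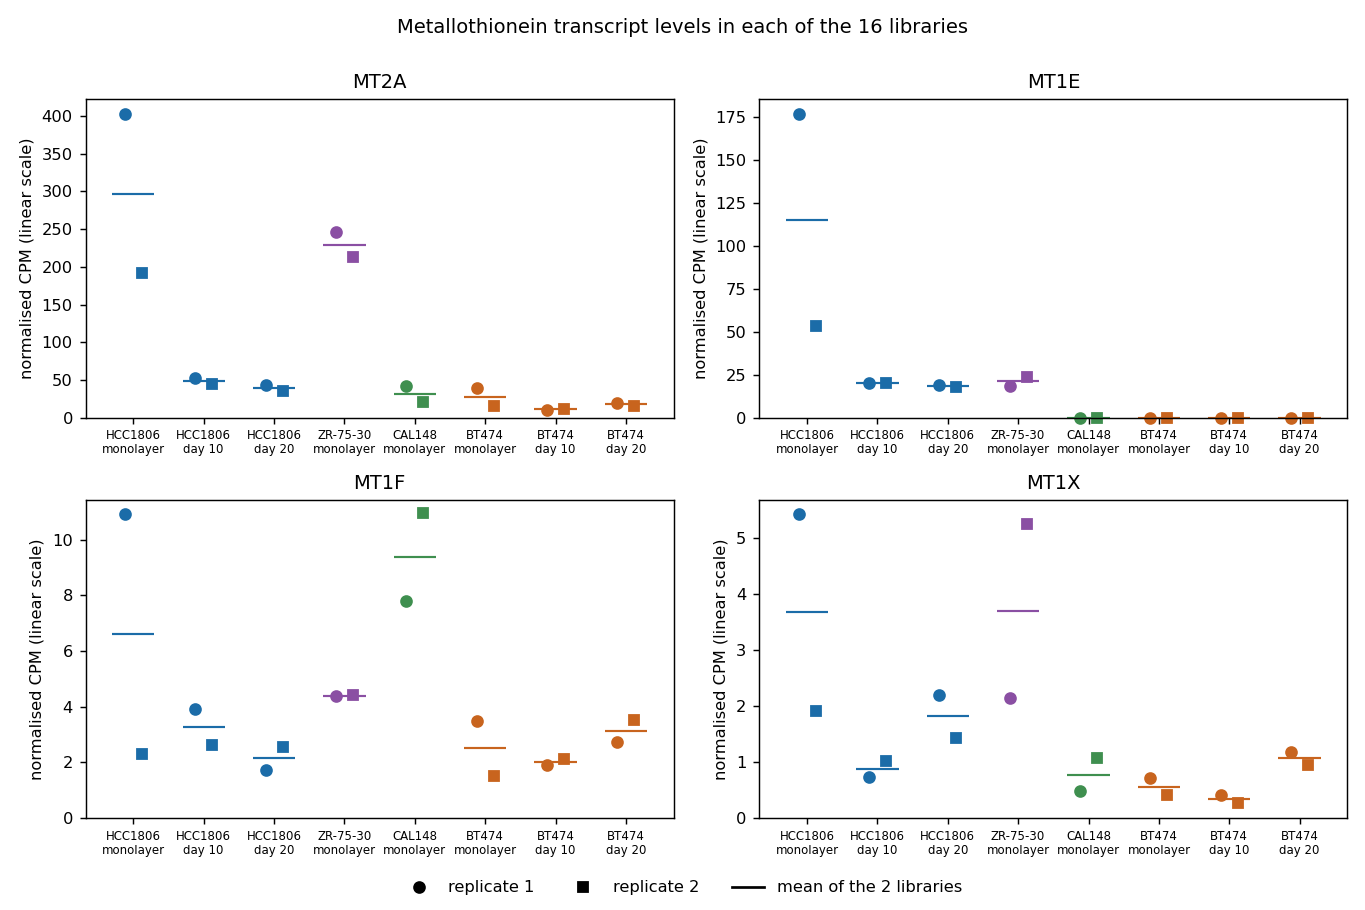
Levels of MT2A, MT1E, MT1F and MT1X in each library, as normalised CPM on linear axes that start at 0, with circles for replicate 1, squares for replicate 2 and a line at the mean of the 2 libraries. MT2A reaches 402 and 192 CPM in the HCC1806 monolayers and 245 and 213 CPM in ZR-75-30, MT1E is at 0 in CAL148 and BT474, and MT1F is highest on average in CAL148.

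The 4 other members were near or below the floor outside HCC1806. MT1A had 131 and 18 counts in HCC1806 monolayers, 1 and 2 on day 10 and 9 and 8 on day 20, 6 and 13 in CAL148, 0 to 5 in the BT474 libraries and 0 in ZR-75-30. MT1M was seen in HCC1806 alone, with 93 and 0 counts in monolayers, 20 and 6 on day 10 and 14 and 17 on day 20. MT1G had 47 and 10 counts in HCC1806 monolayers, 4 and 0 on day 10, 0 and 2 on day 20, 4 and 8 in ZR-75-30 and 0 in CAL148 and BT474. For MT1A, MT1M and MT1G the HCC1806 monolayer library 1 thus held the highest count of all 16 libraries. MT1H had 2 counts, both in HCC1806 monolayer library 2.

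Along the cluster the lines differed in which genes had counts. The transcribed pseudogene MT1L, MT1E, MT1M and the transcribed pseudogene MT1JP (the pseudogenes named after their values were seen) start 9.3, 17.3, 24.0 and 27.5 kb from the start of MT2A, with no other annotated gene between them. Summed over libraries these had 339, 9846, 150 and 28 counts in HCC1806, 0, 1183, 0 and 1 in ZR-75-30, and 0 each in CAL148 and BT474. The pattern was not confined to these neighbours. MT1G, at 58.5 kb and beyond MT1F, likewise had 63 counts in HCC1806, 12 in ZR-75-30 and 0 in CAL148 and BT474. The transcribed pseudogene MT1DP, at 35.5 kb and beyond MT1A, had 9, 4, 0 and 0 counts in HCC1806, ZR-75-30, CAL148 and BT474. In the same libraries MT2A had 2439 and MT1F 748 counts in CAL148, and MT2A had 4728 and MT1F 659 counts in BT474. Of the 18 genes annotated in the cluster, 13 had at least 1 count in HCC1806, 8 in ZR-75-30, 4 in CAL148 and 4 in BT474. Above 3 summed counts there were 11, 6, 4 and 4. These sums cover 6 libraries each for HCC1806 and BT474 and 2 each for ZR-75-30 and CAL148, so the lines differ in depth. The 4 genes seen in CAL148 and in BT474 were MT2A, MT1A, MT1F and MT1X in each line. MT1B, MT1CP and MT1IP had 0 counts in every library, and MT3 and MT4, members with tissue-restricted expression, had 1 and 8 counts in all libraries together.

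**Figure D2:**
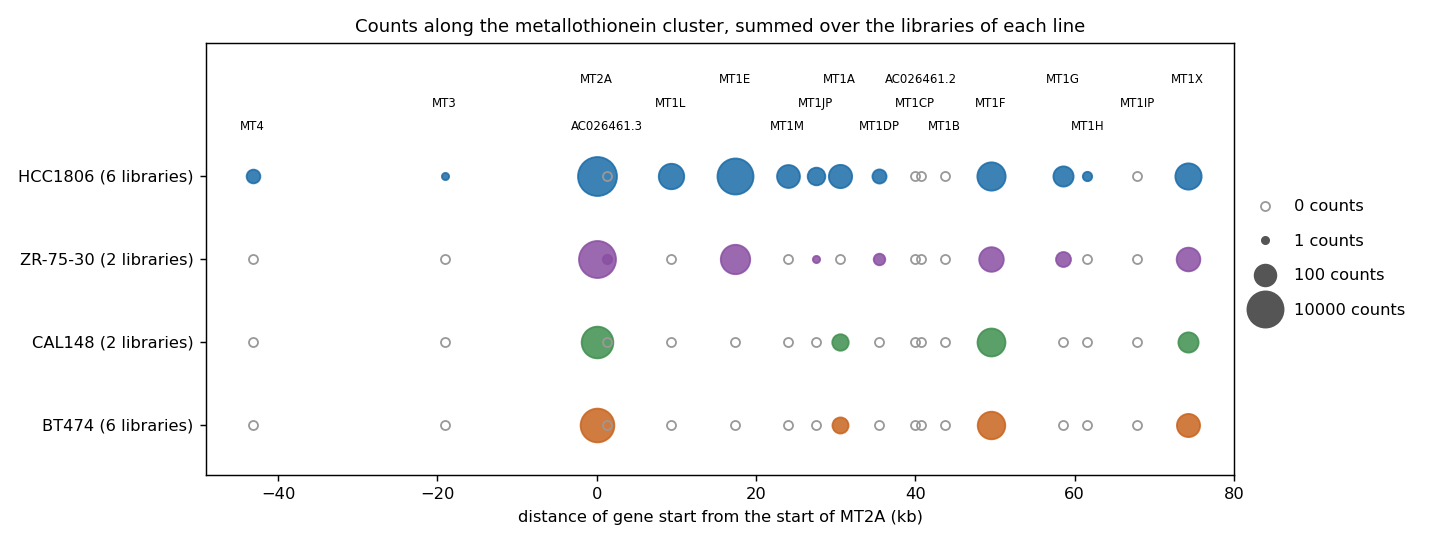
Counts of the 18 genes of the cluster in each line, placed by the distance of the gene start from the start of MT2A in kb, with dot diameter growing with the log10 of the counts summed over libraries (6 for HCC1806 and BT474, 2 for ZR-75-30 and CAL148) and open circles at 0. MT1L, MT1E, MT1M and MT1JP are filled in HCC1806, MT1E and MT1JP (1 count) of these in ZR-75-30, and all are open in CAL148 and BT474, where MT2A and MT1F are filled.

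Summed over the 8 members, HCC1806 had 605 and 250.1 CPM in monolayers, 77.4 and 68.9 CPM on day 10 and 66.5 and 58.5 CPM on day 20. The sum was 271 and 246 CPM in ZR-75-30, 50.8 and 33.4 CPM in CAL148 and 43.3 and 17.0 CPM in BT474 monolayers, with 13.1 and 13.98 CPM on day 10 and 24.1 and 19.8 CPM on day 20. Per length, as a ratio of FPKM values (fragments scaled to transcript length and depth), MT1E was 0.345 to 0.608 of MT2A in the 6 HCC1806 libraries and 0.0939 and 0.138 of MT2A in ZR-75-30. The HCC1806 ratio was 0.542 and 0.345 in monolayers, 0.476 and 0.559 on day 10 and 0.546 and 0.608 on day 20. The ratio in HCC1806 monolayer library 1 lay within the range of the spheroids although its MT2A level was the highest of the series. MT1F per length was 0.127 and 0.359 of MT2A in CAL148, against 0.0619 and 0.0701 in BT474 monolayers.

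HCC1806 spheroids were set against each monolayer library separately, as a description. MT2A on day 10 (mean 48.4 CPM) was 8.30-fold lower than in monolayer library 1 (402 CPM) and 3.95-fold lower than in library 2 (192 CPM), and on day 20 (mean 39.5 CPM) it was 10.2-fold and 4.84-fold lower. MT1E was 8.74-fold and 2.65-fold lower on day 10 and 9.60-fold and 2.91-fold lower on day 20. Both genes were thus lower in spheroids whichever monolayer library was used, and the size of the difference depended on the library. On log2(CPM + 0.5), 6 of the 6 members that passed the count filter were at least 2-fold lower against library 1 on day 10, where 16.3% of 18869 genes were, and 6 of 6 on day 20, where 16.4% were. Against library 2 the count was 2 of 6 on day 10 (7.76% of genes) and 2 of 6 on day 20 (8.56% of genes), MT2A and MT1E on both days. MT1G and MT1H did not pass the filter. The members were chosen with this contrast known, so nothing is read from these shares. Whether the mitochondrial and ribosomal protein shares of library 1, given above, have a part in the larger difference was not tested. In bulk RNA, fewer cells with a transcript and less of it per cell cannot be told apart.

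MT1F differed by monolayer library. On day 10 it was at 3.27 CPM on average, between 10.9 CPM in library 1 and 2.31 CPM in library 2, and on day 20 at 2.16 CPM. MT1X on day 10 was at 0.880 CPM, 6.17-fold lower than library 1 (5.43 CPM) and 2.18-fold lower than library 2 (1.92 CPM). On day 20 it was at 1.82 CPM, 2.99-fold and 1.06-fold lower. MT1A, at 0.0367 CPM on day 10 and 0.206 CPM on day 20, was below both library 1 (4.91 CPM) and library 2 (0.501 CPM), on 1 and 2 counts on day 10 and 9 and 8 on day 20. With so few counts its log2 ratio to library 2 on day 10 depended on the scale, at -0.90 with a pseudocount of 0.5, -2.14 with 0.1 and -1.57 on FPKM. MT1M in spheroids, at 0.302 and 0.374 CPM on average on day 10 and day 20, lay between the 3.48 CPM of library 1 and the 0 counts of library 2.

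**Figure D3:**
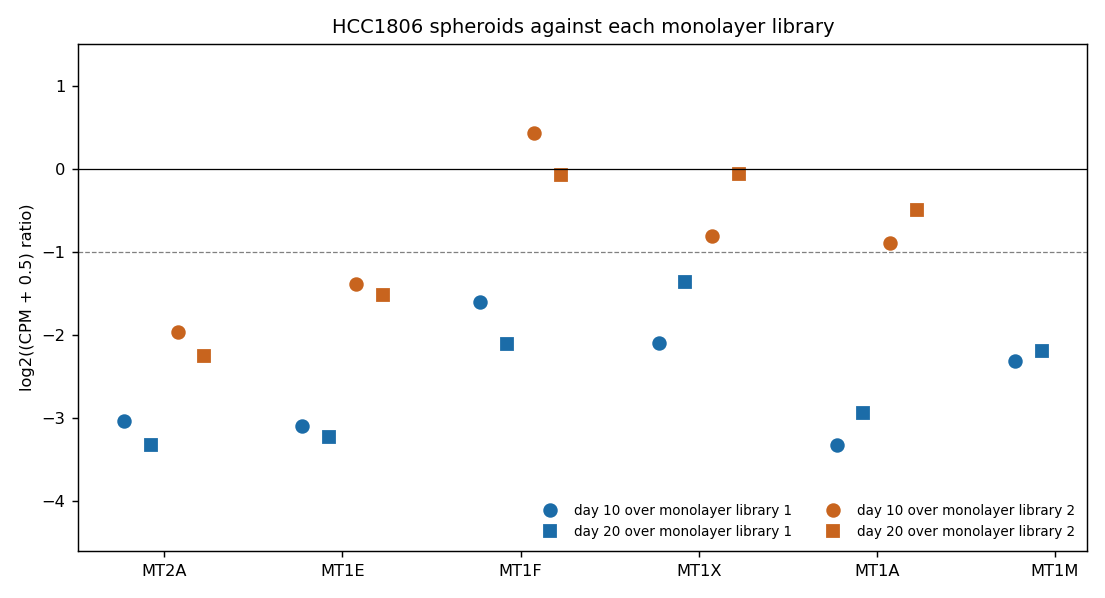
HCC1806 spheroids, as the mean of 2 libraries per day, over each HCC1806 monolayer library, as the log2 ratio of CPM + 0.5, with the dashed line at 2-fold lower and blue and orange for monolayer libraries 1 and 2. MT2A and MT1E lie below the dashed line for both libraries and both days, MT1F, MT1X and MT1A for library 1 alone, and MT1M is drawn for library 1 alone because library 2 had 0 counts.

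Between day 20 and day 10 HCC1806 spheroids no member passed the test, in a comparison where 6.8% of 20606 genes tested were called at an adjusted p under 0.05 (edgeR quasi-likelihood test over 10 libraries, Benjamini-Hochberg adjustment). MT2A averaged 39.5 ± 4.86 CPM on day 20 and 48.4 ± 5.14 CPM on day 10 (SD, n = 2 each), with an edgeR adjusted p of 0.794. MT1E averaged 18.4 ± 0.855 CPM on day 20 and 20.2 ± 0.129 CPM on day 10, with an edgeR adjusted p of 0.778. MT1X had the largest difference of the 5 members tested, a log2 fold change of 1.06 ± 0.423 (SE) with an edgeR adjusted p of 0.184, and it was the 1 member with an unadjusted p under 0.05. DESeq2 and limma on FPKM also called 0 members.

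In BT474 spheroids against BT474 monolayers no member passed the edgeR test on day 10 (12.2% of genes called) or day 20 (14.6% called), with 3 members tested. MT2A on day 10 averaged 11.1 ± 0.563 CPM against 26.9 ± 16.9 CPM in monolayers (SD, n = 2 each), a log2 fold change of -1.32 ± 0.417 (SE) with an edgeR adjusted p of 0.101. Both day 10 libraries were below both monolayer libraries, and the monolayer libraries themselves were 38.9 and 14.97 CPM. DESeq2 gave an adjusted p of 0.0167, and without BT474 monolayer replicate 2 the log2 fold change was -1.84 with an edgeR adjusted p of 1.88e-06. Without BT474 monolayer replicate 1 it was -0.49 with an edgeR adjusted p of 0.0612, and over the 20 alternatives the adjusted p ran from 1.88e-06 to 0.627. MT2A was the 1 member with an unadjusted p under 0.05 on day 10. On day 20 no member had an unadjusted p under 0.05 and DESeq2 called 0, but MT2A, at -0.59 on the log2 scale, was at -1.11 with an edgeR adjusted p of 0.000196 without BT474 monolayer replicate 2 and at 0.24 without BT474 monolayer replicate 1.

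Between day 20 and day 10 BT474 spheroids edgeR called 0 members, where 0.281% of genes were called, and DESeq2 called 0. MT2A averaged 17.7 ± 3.50 CPM on day 20 and 11.1 ± 0.563 CPM on day 10 (SD, n = 2 each), a log2 fold change of 0.73 with an edgeR adjusted p of 0.673. That value was called when either BT474 monolayer library was left out of the fit, with an edgeR adjusted p of 0.0107 without replicate 1 and 0.0138 without replicate 2. In those fits 356 and 352 genes were called, against 58 with both, and DESeq2 called 247 genes, so the background share itself moved. MT1X averaged 1.07 ± 0.168 CPM on day 20 and 0.347 ± 0.101 CPM on day 10, a log2 fold change of 1.71 ± 0.467 (SE) with an edgeR adjusted p of 0.192, and it was the 1 member with an unadjusted p under 0.05.

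No member passed the edgeR test of the difference between the lines in the day 20 against day 10 effect, where 2.67% of genes were called. MT1F had the lowest unadjusted p of the 3 members tested, 0.0273, with a difference of -1.28 (HCC1806 minus BT474, log2) and an edgeR adjusted p of 0.246, and DESeq2 called 0 members. For MT2A the difference was -1.02 with an edgeR adjusted p of 0.487. It passed when BT474 monolayer replicate 1 or replicate 2 was left out, at 0.00323 and 0.00383.

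Set against BT474 spheroids of the same day, HCC1806 spheroids had more MT2A on both days and more MT1X on day 10. MT1E and MT1M had counts in HCC1806 spheroids and 0 in BT474 spheroids. MT2A averaged 48.4 ± 5.14 CPM in HCC1806 and 11.1 ± 0.563 CPM in BT474 on day 10 (SD, n = 2 each), a log2 fold change of 2.25 ± 0.421 (SE) with an edgeR adjusted p of 0.00276. On day 20 it averaged 39.5 ± 4.86 CPM in HCC1806 and 17.7 ± 3.50 CPM in BT474, a log2 fold change of 1.23 ± 0.410 with an edgeR adjusted p of 0.0327. The day 10 call held under every alternative tried, while the day 20 call was lost without either HCC1806 day 20 library (edgeR adjusted p 0.130 and 0.0764), without any 1 of the 4 BT474 spheroid libraries (0.0622 to 0.159), without a count filter (0.0979) and with the HCC1806 monolayers in the fit (0.0643). MT1E was at least 713-fold higher on day 10 and at least 458-fold higher on day 20, with 1689 and 1519 counts in HCC1806 and 0 in BT474, taking 3 counts per group as the floor.

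MT1M had 26 counts in HCC1806 and 0 in BT474 on day 10, and 31 and 0 on day 20. It was thus at least 11-fold and at least 9.35-fold higher. It passed the count filter through HCC1806 alone, so its edgeR adjusted p values, 0.00294 and 0.0037, are not read as a test. With the HCC1806 monolayers in the fit these were 0.152 and 0.162. MT1X averaged 0.880 ± 0.192 CPM in HCC1806 and 0.347 ± 0.101 CPM in BT474 on day 10, an edgeR adjusted p of 0.0114 that was 0.074 without HCC1806 day 10 replicate 2, 0.118 without BT474 day 10 replicate 2 and 0.089 with the HCC1806 monolayers in the fit. On day 20 the MT1X value was 0.0894, and it passed by limma on log2(FPKM + 0.1) (0.0432) and on log2(FPKM + 1) (0.0185). MT1F did not pass on day 10 (0.0582) or day 20 (0.275). Its day 10 value passed with RLE size factors (0.0491), with no count filter (0.0245), with halved counts (0.04), and without HCC1806 day 10 replicate 2 (0.0431) or BT474 monolayer replicate 1 (0.0212) or 2 (0.0198), and over 19 alternatives it ran from 0.0198 to 0.384. MT1E and MT1M passed the count filter through HCC1806 alone, so a difference was fixed for them and they are left out of the count. Of the 3 members that passed the filter with counts in both lines, 2 were higher on day 10 and 1 on day 20. Of all genes 37.5% and 37.7% were called higher, and 70.7% and 71.3% in either direction. MT1A did not pass the filter, with 3 counts in HCC1806 and 5 in BT474 on day 10, and 17 and 4 on day 20.

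**Figure D4:**
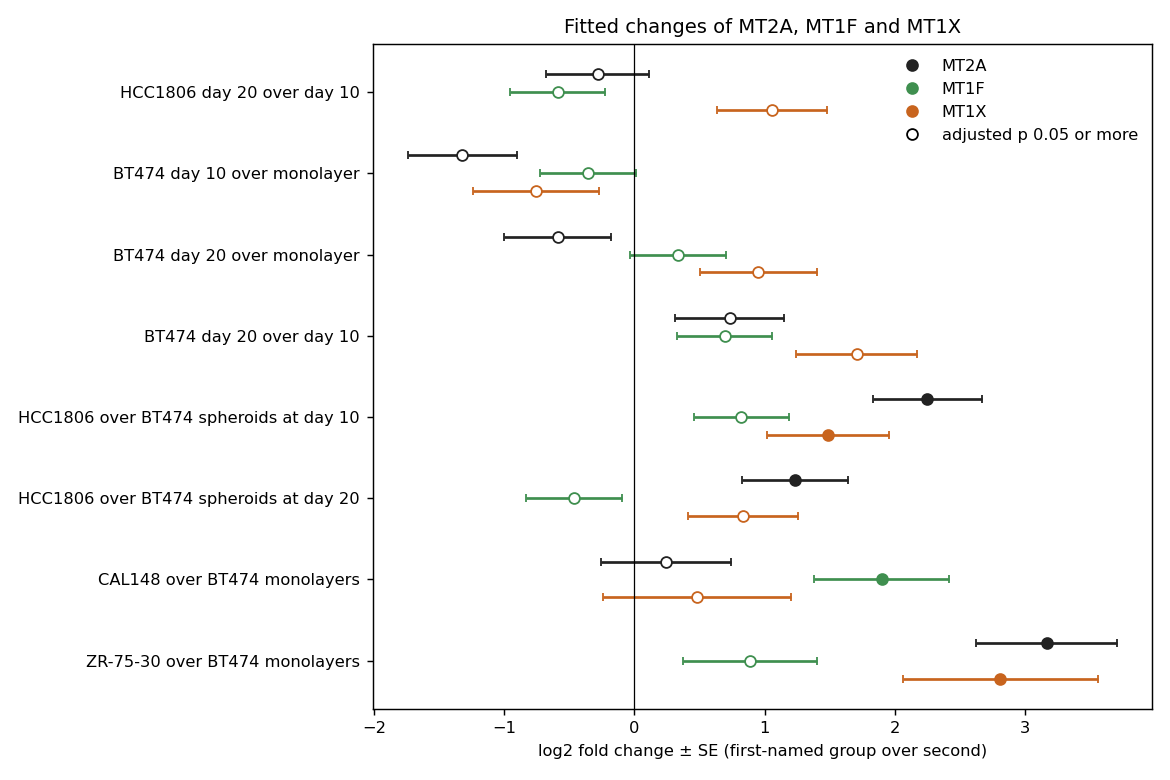
Log2 fold changes of MT2A, MT1F and MT1X with their SE from the edgeR fits, one row per comparison with the first-named group over the second, filled where the adjusted p was under 0.05. All filled points lie right of 0 and belong to comparisons between lines, with MT2A at 2.25 and 1.23 for HCC1806 over BT474 spheroids and 3.17 for ZR-75-30 over BT474 monolayers.

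Among monolayers ZR-75-30, like BT474 an ERBB2-amplified line, had more MT2A and MT1X than BT474, which had 0 counts of MT1E. MT2A averaged 229 ± 23.2 CPM in ZR-75-30 and 26.9 ± 16.9 CPM in BT474 (SD, n = 2 each), a log2 fold change of 3.17 ± 0.541 (SE) with an edgeR adjusted p of 0.0082 over 6 libraries. MT1E had 1183 counts in ZR-75-30 and 0 in BT474, at least 567-fold higher. MT1X averaged 3.69 ± 2.2 CPM in ZR-75-30 and 0.558 ± 0.216 CPM in BT474, a log2 fold change of 2.81 with an edgeR adjusted p of 0.0337. Without ZR-75-30 replicate 2, the library with the high mitochondrial share, the MT1X log2 fold change was 1.96. It was 3.21 without BT474 replicate 1 and 2.44 without BT474 replicate 2. In each of these fits with a library left out the MT1X call was lost. For MT1X the replicate block gave an edgeR adjusted p of 0.0505 and the fit with the HCC1806 monolayers 0.104, so both also lost the call. MT2A passed under every alternative that kept 2 libraries in each group. MT1E passed the count filter through ZR-75-30 alone, so its edgeR adjusted p of 0.00166 is not read as a test. MT1E is left out of the count below. Of the 3 members with counts in both lines 2 were higher, where 12.2% of 18224 genes were called higher and 25.3% in either direction.

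CAL148 differed from BT474, which shares its medium, in MT1F alone of the 3 members tested, where 9.62% of genes were called higher and 21.7% in either direction. MT1F averaged 9.38 ± 2.23 CPM in CAL148 and 2.51 ± 1.40 CPM in BT474 (SD, n = 2 each), a log2 fold change of 1.90 ± 0.522 (SE) with an edgeR adjusted p of 0.0405. The call was lost when any of these 4 libraries was left out (edgeR adjusted p 0.0838 to 0.305). MT2A averaged 31.7 ± 15.1 CPM in CAL148 and 26.9 ± 16.9 CPM in BT474, and the libraries overlapped (edgeR adjusted p 0.773).

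Zinc transport and regulator genes were read beside the family from lists of general knowledge. MTF1, the zinc-sensing activator, was at 17.8 and 41.4 CPM in HCC1806 monolayers, 39.8 and 37.3 CPM on day 10 and 38.2 and 34.7 CPM on day 20, against 19.7 to 26.0 CPM in the 6 BT474 libraries. It passed no test within a line and was higher in HCC1806 than in BT474 spheroids on both days, by 1.01 and 0.92 on the log2 scale (edgeR adjusted p 1.33e-06 and 3.63e-06). SLC30A1, the plasma membrane zinc exporter that MTF1 also activates, was at 105 and 59.2 CPM in ZR-75-30, against 21.2 and 25.0 CPM in BT474 monolayers, a log2 fold change of 1.90 with an edgeR adjusted p of 0.00933. The order of SLC30A1 was not that of MT2A, since the HCC1806 monolayers had 25.1 and 31.7 CPM, below the HCC1806 spheroids (34.3 and 33.9 CPM on day 10, 43.8 and 40.9 CPM on day 20), and CAL148 had 48.3 and 47.4 CPM. SLC30A1 was also higher in HCC1806 than in BT474 spheroids, by 0.56 on day 10 and 0.66 on day 20 (edgeR adjusted p 0.000588 and 0.000139), and passed no test within a line. SLC39A6, a zinc importer linked to oestrogen receptor signalling, was lower in HCC1806 than in BT474 spheroids, by log2 fold changes of -2.47 and -2.66 (edgeR adjusted p 4.79e-10 and 2.57e-10). SLC39A4, another importer, went the other way, by 5.21 and 4.94 (edgeR adjusted p 7.98e-10 and 1.72e-09). In ZR-75-30 against BT474 monolayers 3 of 11 SLC39 genes were higher and 1 lower, SLC39A4 by 7.61 and SLC39A6 by -1.34. In CAL148 against BT474 monolayers 1 of 11 was higher, SLC39A4 by 4.47, and 0 lower.

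Within HCC1806, day 20 against day 10, 0 of 8 tested SLC30 exporters changed, and of 13 tested SLC39 importers SLC39A14 rose (0.41, log2) and SLC39A11 fell (-0.75). Of 8 regulators the glucocorticoid receptor gene NR3C1 rose (0.46) and KEAP1, the inhibitor of NFE2L2, fell (-0.31). Of 13 metal and oxidative stress genes the chaperone gene HSPH1 rose (0.69) and NQO1 (-0.51) and GCLM (-0.35), both NFE2L2 targets, fell. The other lists held 1 rise and 1 fall among 12 copper genes, 1 rise among 9 glucocorticoid-response genes, and 1 fall among 9 genes flanking the cluster. All-gene background was the 6.8% given above.

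In BT474 spheroids against monolayers, where 12.2% of genes were called on day 10 and 14.6% on day 20, the importer SLC39A10 was higher by 1.17 on day 10 and 1.14 on day 20, and SLC39A14 lower by log2 fold changes of -0.52 and -0.83. Of 13 SLC39 genes 2 rose and 1 fell on day 10, and 1 rose and 2 fell on day 20. Of 8 SLC30 genes 0 changed on day 10 and 1, SLC30A4, fell on day 20 (-1.504). Of 9 glucocorticoid-response genes SGK1, a kinase gene induced by steroids and by osmotic stress, rose on both days (2.76 and 3.22) and ERRFI1 fell on both (-0.46 and -0.47). Of 13 stress genes 4 rose and 3 fell on day 10, OSGIN1 by 1.11 and HSPA1B by 0.62 among those that rose, and 3 rose and 1 fell on day 20. Of 8 regulators HIF1A rose on both days (0.49 and 0.41). Among markers of other cell types, 3 of 7 tested rose on day 10, LYZ (5.73), VIM (0.68) and COL1A1 (0.38), and LYZ alone rose on day 20 (6.25). LYZ, a leukocyte marker, is also made by secretory epithelium. The number of the 12 markers at or under 3 counts was 5 on day 10 and 7 on day 20, against 7 in monolayers. Of 12 copper genes 2 rose and 1 fell on day 10 and 3 rose and 1 fell on day 20. Between day 20 and day 10 of BT474 edgeR called 0 genes of all these lists.

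Between the lines the lists were read against the shares of all genes called. In HCC1806 against BT474 spheroids 7 SLC30 genes were higher and 1 lower of 8 on each day, with a median log2 fold change of 1.06 on day 10 and 0.93 on day 20, beside 0.08 and 0.09 over all genes and the 37.5% and 37.7% of genes called higher. Of 13 SLC39 genes 5 were higher and 7 lower on each day. Of 8 regulators 6 were higher and 2 lower on each day, NFE2L2 by 2.66 and 2.37 and NR3C1 by 2.58 and 3.42. Of 13 stress genes 9 were higher and 2 lower on day 10 and 10 and 3 on day 20, with the glutathione synthesis gene GCLC up by 2.61 on each day. Of 12 copper genes 2 were higher and 7 lower on each day, and of 9 glucocorticoid-response genes 5 were higher and 4 lower. In ZR-75-30 against BT474 monolayers, where 12.2% of genes were called higher and 13% lower, 4 of 13 stress genes were higher and none lower, HSPA1A by 3.23 and GCLM by 2.13, and 0 of 8 regulators passed. In CAL148 against BT474 monolayers, where 9.62% were called higher and 12.1% lower, 5 of 13 stress genes were lower, NQO1 by a log2 fold change of -1.55, and 0 of 8 regulators passed. Of the genes flanking the cluster 3 of 7 were lower in CAL148, NUP93 by a log2 fold change of -1.37, and 1 of 7, BBS2, was higher in ZR-75-30 (1.29). In HCC1806 against BT474 spheroids 2 of 9 flanking genes were higher and 4 lower on day 10, and 2 higher and 3 lower on day 20. CES1 averaged 319 and 121 CPM in HCC1806 on day 10 and day 20, and 0 and 0.027 CPM in BT474, so no fold is given.

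Across the 16 libraries MT2A correlated with MT1E (Pearson r 0.840 on log2(CPM + 1)) and with MT1X (0.837), and less with MT1F (0.414), while MT1E and MT1F had r 0.143. Without the HCC1806 monolayers these values were 0.738, 0.775, 0.306 and -0.103. The genes most like MT2A among 11712 with mean CPM of at least 5 were RUVBL2 (r 0.928), CHRAC1 (0.921), FUCA2 (0.911), SYNGR2 (0.907) and SH3GL1 (0.906). Those most like MT1X were POMP (0.912), CCDC12 (0.905), COA6 (0.902), FOSB (0.898) and MTND1P23 (0.897). Without the HCC1806 monolayers these were 0.890, 0.853, 0.853, 0.861 and 0.847. MT1X was highest in HCC1806 monolayer library 1 (5.43 CPM) and ZR-75-30 replicate 2 (5.25 CPM), with 17.8% and 20.5% mitochondrial counts. MTND1P23 ran from 0.167 to 4138 CPM. Whether the mitochondrial share has a part in this list was not tested. All these correlations are descriptions over libraries that share line, culture and depth within groups.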

How the data were processed

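Poly(A)-selected RNA of 16 libraries was sequenced as 150-base read pairs, per the labels' protocols. The authors aligned to GRCh38 with HISAT2 2.2.1 and counted per gene with featureCounts 2.0.6, per the submitters' processing notes. Strandedness and the treatment of multi-mapping reads are not given in the sources used here. The count table the authors deposited holds whole numbers, 1 row for each of 58735 genes. The deposited FPKM values are the authors' own normalisation and served for ratios between genes and for alternatives.

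The members and gene lists (10 lists, 117 symbols, 115 matched) were chosen with earlier results of these data known. Tests used edgeR 4.0.16 in R 4.3.3 (TMM, filterByExpr with minimum count 10 and minimum total 15, robust quasi-likelihood F tests, Benjamini-Hochberg over all genes tested): 1 fit of 10 libraries in 5 groups (HCC1806 spheroids, BT474 monolayers and spheroids) and 1 of 6 monolayer libraries in 3 groups (BT474, CAL148, ZR-75-30). HCC1806 monolayers were left out of both because the pair stands far apart, and each of its libraries was compared by fold alone, with a pseudocount of 0.5 CPM. Library CPM used TMM factors of all 16 libraries. Fold bounds against a group at 0 used 3 counts over the group. Fits were run on simulated data with the same spread for every gene and group, which does not cover groups of unequal spread such as those here.

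All 8 members are reported. From each list at most the 3 called genes with the largest fold change and mean CPM of at least 5 are named per comparison, with MTF1, SLC30A1 and SLC39A6 in any case. Line markers and markers of other cell types are given as levels. Alternatives were DESeq2 1.42.0, limma 3.58.1 on log2 FPKM, other scaling and filters, halved counts, other sample sets, a replicate block and leaving out each library. Figures used matplotlib 3.10.9.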

Additional observations from a re-analysis of the deposited data

How the results depend on the processing

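Of the tested member values, 577 kept their direction and side of the threshold under the alternatives, 24 lost the call, 16 gained one and 8 changed sign. Values without a call that stayed without one are among those kept. The tally also holds MT1E and MT1M against BT474, for which a difference was fixed by the count filter, so it is no measure of how firm the calls are. DESeq2 called 1 member in BT474 day 10 against monolayer in place of 0, and so did the replicate block, which also took CAL148 against BT474 to 0 members in place of 1. Replicate numbers did not pair the libraries: deviations of same-numbered libraries correlated at -0.12 to 0.17 in 10 pairs and -0.182 to 0.00765 in 3 pairs. With the HCC1806 monolayers in the fit, 0 members were called in CAL148 against BT474 monolayers. In HCC1806 against BT474 spheroids 2 members were called on day 10 and 1 on day 20, in place of 4 and 3. Counts for this comparison, here and below, include MT1E and, where called, MT1M. Counts for ZR-75-30 against BT474 include MT1E. Both genes had 0 counts in BT474 and passed the count filter through the other line alone. Without MT1E and MT1M the reported 4 and 3 are 2 and 1. With a pseudocount of 0.1, 4 members were at least 2-fold lower in HCC1806 day 10 against monolayer library 2, in place of 2. Leaving out each library in turn gave 0 to 1 members called in BT474 day 10 and day 20 against monolayer, day 20 against day 10, the line difference of the day effect and CAL148 against BT474, 3 to 5 and 2 to 3 in HCC1806 against BT474 spheroids on day 10 and day 20, 2 to 3 in ZR-75-30 against BT474, and 0 in HCC1806 day 20 against day 10. Signs turned, on the log2 scale and with no call on either side except where the report gives one, as follows. MT1X in the line difference of the day effect was 0.034 by limma on log2(FPKM + 1). Leaving out each library gave -0.26 to 1.29 for MT1M in HCC1806 day 20 against day 10, -0.82 to 0.34 for MT1F in BT474 day 10 against monolayer, -1.11 to 0.24 for MT2A and -0.13 to 1.04 for MT1F in BT474 day 20 against monolayer, and -0.36 to 1.08 for MT2A and -0.15 to 0.93 for MT1X in CAL148 against BT474 (-0.27 for MT2A without BT474 replicate 2). For HCC1806 day 20 against monolayer library 2 it gave -0.324 to 0.128 for MT1F and -0.322 to 0.158 for MT1X, and library totals alone gave 0.094 and 0.104. The number of all genes called, over the alternatives, ran from 0 to 2341 in HCC1806 day 20 against day 10 (1402 as reported), 27 to 3241 in BT474 day 10 (2524) and 49 to 3693 in day 20 against monolayer (3017), 0 to 378 in BT474 day 20 against day 10 (58), 0 to 1312 in the line difference (550), 9034 to 15299 and 9128 to 15372 in HCC1806 against BT474 spheroids on day 10 (14568) and day 20 (14687), 1234 to 6609 in CAL148 (3961) and 1296 to 6950 in ZR-75-30 against BT474 (4602). The lowest values of the spheroid fits came with the HCC1806 monolayers included. The cause was not tested. Members under the floor of 3 counts cannot be compared at this depth, and with a lone library left in a group its spread is assumed to be that of the other groups.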
